A study of Homo sapiens with 6 samples.

Results

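The genes described here are 10 enzymes that build, lengthen, desaturate and activate fatty acids: ACLY, ACACA, FASN, ELOVL5, ELOVL6, SCD, FADS1, FADS2, ACSL3 and ACSL4. They were measured by RNA-seq in K562 cells, a human chronic myeloid leukemia line that carries the Bcr-Abl fusion and has erythroid features. Of 109018 rows in the expression table, each 1 RefSeq protein accession, 38 belonged to these 10 genes. A total of 19053 genes could be named, and 10706 of them had a mean of at least 1 read per 1000000 reads (RPM) over the libraries and were tested. All 10 enzymes passed that minimum. The genes were chosen by their known roles and with their measured values in this same comparison in view. Their own differences are therefore given as a description. Where genes or rows past a test's threshold are counted among them, nothing is read from the count.

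The comparison was between K562 cells stably expressing an shRNA against the long noncoding RNA lncRNA-IUR-5 (sh-IUR-5; the sample labels call it sh-lncRNA-IIRX) and K562 cells stably expressing an shRNA against luciferase (sh-luc), a sequence the cells do not have. Both shRNAs were delivered by lentivirus in the pSIH-H1-GFP vector, whose H1 promoter drives the hairpin, so both groups carry the vector, and the labels give no drug treatment. The design used 1 hairpin against lncRNA-IUR-5, and whether each line was a pool or a clone was not given in the sources used here. Each group had 3 libraries of total RNA. The descriptions number them 1, 2.1 and 2.2 in both groups without saying what the first digit means, while the methods describe the RNA as coming from 3 independent groups of cells. If 2.1 and 2.2 nonetheless share a culture, the errors given here are in part technical. The table lists protein accessions, so lncRNA-IUR-5 itself was not measured and the knockdown was not checked here.

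Libraries held 21023739 to 23320543 reads in sh-luc and 24325122 to 31481109 in sh-IUR-5. All 10 markers of the K562 line, among them HBG1, HBZ and GATA1, were at 1 RPM or above, and the adipocyte markers ADIPOQ, PLIN1 and FABP4 had no read in any library. The K562 markers summed to 9184 to 10235 RPM in sh-luc and 7355 to 7681 in sh-IUR-5, a difference whose part in the results below was not tested. Library 1 stood apart in both groups, more so in sh-IUR-5. Its chi-square per gene against libraries 2 and 3 was 9.83 and 9.28 in sh-luc and 16.5 and 18.7 in sh-IUR-5, whereas libraries 2 and 3 gave 4.81 and 3.25 against each other. Values without library 1 of sh-IUR-5 are given for the 10 enzymes. With edgeR and TMM scaling, which assumes that most genes do not change, 24.3% of the 10706 genes tested were higher in sh-IUR-5 and 22.8% were lower at an adjusted p under 0.05. When libraries were scaled to their total reads instead, the split moved from 2604 higher and 2440 lower to 4520 higher and 1114 lower, and the median log2 fold change of all genes moved from 0.02 to 0.23. Changes below are relative to the TMM scale unless stated, and levels are given as normalised RPM, that is RPM after TMM scaling.

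In the cytosol, fatty acids are made from citrate. ACLY splits citrate to acetyl-CoA, ACACA carboxylates acetyl-CoA to malonyl-CoA, and FASN joins these units into palmitate. ELOVL6 lengthens palmitate to stearate, SCD puts the first double bond into saturated chains, and FADS1, FADS2 and ELOVL5 desaturate and lengthen polyunsaturated chains. ACSL3 and ACSL4 couple free fatty acids to coenzyme A so that they can enter lipids, with ACSL4 favouring arachidonic acid. Many of these genes are known targets of the SREBP transcription factors, and dividing tumour cells are known to keep this pathway active for membrane synthesis.

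A pair of sequence stretches is printed here. No link between the SCD stretch and the level of SCD was tested. The first is the 250 bases upstream of the SCD start site, shown because SCD differed most of the 10 genes. It lies at chr10:100346983-100347232 on the plus strand of GRCh38.p14 (RefSeq), directly before the gene (chr10:100347233-100364826 in GENCODE release 44). Capitals mark the sequence CCAAT, which begins 229 and 186 bases before the start.

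SCD promoter: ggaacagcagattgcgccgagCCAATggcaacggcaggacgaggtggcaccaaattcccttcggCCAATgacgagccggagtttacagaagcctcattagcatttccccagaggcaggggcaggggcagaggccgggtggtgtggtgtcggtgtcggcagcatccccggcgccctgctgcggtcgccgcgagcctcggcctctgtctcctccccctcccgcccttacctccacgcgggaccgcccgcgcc

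The second is the coding exon that belongs only to the shortest ELOVL5 transcript, shown because the row of 267 coding bases did not move with the other ELOVL5 rows. The GENCODE transcript whose coding sequence with its stop codon has that length, ENST00000370913.5, has 58 coding bases in an exon shared with longer transcripts (chr6:53295642-53295699) and 206 in this one (chr6:53294286-53294491, minus strand, hg38). The exon has a GC content of 47.6%. It overlaps no exon of the 3 other coding transcripts of ELOVL5 in GENCODE and lies inside an intron of each. All 182 stretches of 25 bases within it occur once in hg38, and no transcript of another gene holds any of them.

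ELOVL5 short exon: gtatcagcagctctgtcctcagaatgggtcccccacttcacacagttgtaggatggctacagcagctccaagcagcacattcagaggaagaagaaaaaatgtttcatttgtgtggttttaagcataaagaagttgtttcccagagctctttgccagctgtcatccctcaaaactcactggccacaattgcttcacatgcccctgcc

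RefSeq promoter windows were available for 9 of the 10 genes, all but FASN, 13 windows in all. The letters of a sterol response element, TCACNCCAC, occurred on either strand in 0 of the 13 windows, and in 0.883% of all 35116 windows. The E-box CACGTG was in 1 of 13, that of ELOVL5, against 6.34% of all windows. The CCAAT box was in 7 windows of 5 genes (ACACA, ACLY, ACSL3, ELOVL5 and SCD) against 32% of all windows. The GC box GGGCGG was in 10 windows of 8 genes against 42.6%. The GAS element TTCNNNGAA, the letters bound by STAT factors, was in 0 of 13 against 6.57%. These matches describe letters in short windows, and an absent match says nothing about binding elsewhere. FADS1 and FADS2 are read from opposite strands of chr11 and overlap in the annotation (chr11:61799627-61829318 and chr11:61792980-61867354), with annotated FADS2 starts 800 and 599 bases from the FADS1 start. The strand setting of the counting was not given in the sources used here, so reads in their overlap cannot be told apart.

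As a group, the 10 genes lay higher in sh-IUR-5 cells. Their summed level was 501, 491 and 511 normalised RPM across the control libraries, against 788, 677 and 676 with sh-IUR-5. The mean went from 501 ± 9.58 (SD, n = 3) to 713 ± 64.3 (SD, n = 3), a ratio of 1.42. The log2 fold change was positive for all 10, with a median of 0.56 against 0.02 over all genes tested, and it stayed positive for each of the 10 under every alternative run. With edgeR, 8 of the 10 passed the adjusted threshold and all 8 were higher, where 24.3% of all genes were. The 3 sh-IUR-5 libraries lay above the 3 sh-luc libraries for 9 of the 10 genes, FADS1 being the exception, where 29.3% of all genes tested did so. Nothing is read from these counts, since the genes were selected on this comparison. The gene nearest inside the threshold by size of difference was ACSL3 at 0.35 and the nearest outside was FADS1 at 0.29.

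**Figure D1:**
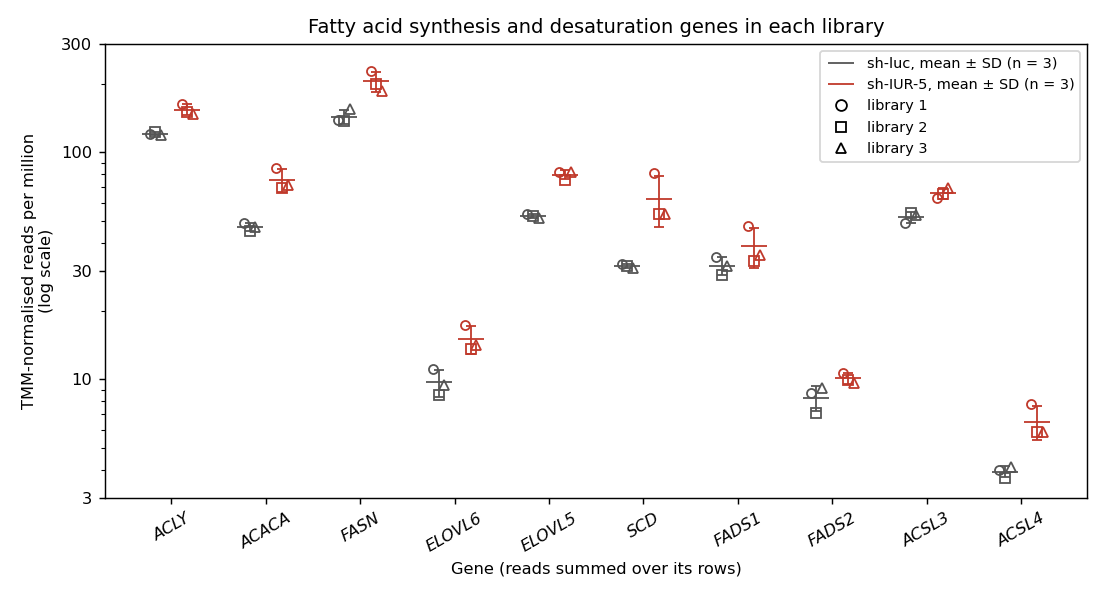
TMM-normalised RPM (log axis) of the 10 genes, with reads summed over the rows of a gene; symbols are the 3 libraries of each group, and horizontal bars with whiskers are means ± SD. The sh-IUR-5 libraries sit above the sh-luc libraries for every gene but FADS1, and library 1 of sh-IUR-5 is the highest library for 8 of the 10.

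The 3 enzymes that lead to palmitate differed by different amounts. ACLY, the citrate lyase (chr17:41866917-41930542), stood at 120, 123 and 119 normalised RPM in sh-luc and at 164, 151 and 148 in sh-IUR-5. The groups did not overlap, and the log2 fold change was 0.35 with a standard error of 0.07, or 1.28-fold. ACACA, the acetyl-CoA carboxylase (chr17:37084992-37406836), stood at 48.8, 45.2 and 46.7 in sh-luc and at 85.5, 69.5 and 71.5 in sh-IUR-5. Its difference was the largest of the 3, at a log2 fold change of 0.69 (SE 0.09), or 1.61-fold. FASN, the fatty acid synthase (chr17:82078338-82098294), was the most heavily read of all 10, at 139, 137 and 155 in sh-luc and 229, 200 and 187 in sh-IUR-5. That is a log2 fold change of 0.51 (SE 0.09), or 1.43-fold, again with no overlap of the groups. All 3 genes lie on chromosome 17.

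The ratio of reads between 2 genes within a library does not depend on how libraries are scaled. ACACA to ACLY was 0.405, 0.369 and 0.39 in sh-luc and 0.52, 0.46 and 0.485 in sh-IUR-5, so the groups did not overlap. FASN to ACACA was 2.85, 3.04 and 3.33 in sh-luc and 2.68, 2.87 and 2.61 in sh-IUR-5, and here the groups overlapped. The carboxylase thus differed more than the lyase before it, whereas its difference and that of the synthase after it were not separated by library.

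Of the elongases, ELOVL6, which acts on palmitate (chr4:110045846-110199199), was at 11.1, 8.51 and 9.47 normalised RPM in sh-luc and 17.4, 13.6 and 14.1 in sh-IUR-5. All sh-IUR-5 libraries lay above all sh-luc libraries, with a log2 fold change of 0.63 (SE 0.13), or 1.55-fold. ELOVL5, which acts on polyunsaturated chains (chr6:53267398-53349179), was at 53.4, 52.6 and 51.2 in sh-luc and 81.8, 75.3 and 82.1 in sh-IUR-5. Its log2 fold change of 0.61 (SE 0.07), or 1.52-fold, was 0.59 without library 1 of sh-IUR-5, which was not its highest library. The read ratio of ELOVL6 to ELOVL5 was 0.185 ± 0.0235 in sh-luc and 0.188 ± 0.0212 in sh-IUR-5 (SD, n = 3 each), a difference within the spread of the libraries.

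SCD, the stearoyl-CoA desaturase, had the largest difference of the 10. Its single row held 694, 616 and 612 reads in sh-luc and 2854, 1362 and 1404 in sh-IUR-5, which is 32.1, 31.4 and 31 normalised RPM against 80.9, 53.3 and 53.5. The control libraries lay close together, and library 1 of sh-IUR-5 was well above the others of its group. The log2 fold change was 1.00 (SE 0.14), or 1.99-fold, higher than 98.6% of all genes tested. Without library 1 of sh-IUR-5 it was 0.76. SCD also differed more than FASN in the same libraries, since the read ratio of SCD to FASN was 0.23, 0.229 and 0.2 in sh-luc and 0.353, 0.267 and 0.287 in sh-IUR-5. For scale, TFRC, which encodes the transferrin receptor CD71 that the study followed, had a log2 fold change of 1.10 (SE 0.08).

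The front-end desaturases FADS1 and FADS2, which add double bonds to polyunsaturated chains, differed least. FADS1 was at 34.6, 28.7 and 31.6 normalised RPM in sh-luc and at 47.5, 33.2 and 35.1 in sh-IUR-5, where 1 sh-luc library lay above 1 sh-IUR-5 library. Its log2 fold change was 0.29 (SE 0.13), and 0.11 without library 1 of sh-IUR-5. FADS2 was at 8.69, 7.08 and 9.12 in sh-luc and 10.7, 9.94 and 9.64 in sh-IUR-5, a log2 fold change of 0.28 (SE 0.12). Without library 1 of sh-IUR-5, FADS2 was at 0.24. The read ratio of FADS1 to FADS2 was 3.84 ± 0.322 in sh-luc and 3.8 ± 0.572 in sh-IUR-5 (SD, n = 3 each). The ratio of SCD to FADS2 was 3.69, 4.43 and 3.4 in sh-luc and 7.57, 5.36 and 5.55 in sh-IUR-5, so within the desaturases the balance of reads moved to SCD in every sh-IUR-5 library.

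The acyl-CoA synthetases were far apart in level. ACSL3 (chr2:222860942-222944639) stood at 48.7, 54.2 and 52.7 normalised RPM in sh-luc and 62.8, 65.5 and 69.9 in sh-IUR-5. It was the only one of the 10 for which library 1 was the lowest of the sh-IUR-5 group, and its log2 fold change was 0.35 (SE 0.08). ACSL4 (chrX:109624244-109733403) stood at 3.97, 3.67 and 4.1 in sh-luc and 7.77, 5.83 and 5.87 in sh-IUR-5, a log2 fold change of 0.74 (SE 0.16) resting on 72 to 86 reads per control library. The read ratio of ACSL4 to ACSL3 was 0.0815, 0.0677 and 0.0778 in sh-luc and 0.124, 0.0891 and 0.084 in sh-IUR-5, without overlap.

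Several technical measures moved with these differences, and their part in them was not tested beyond the values given. Across the 10706 genes, the log2 fold change correlated with row length at a Spearman rho of 0.34 and, over 10589 genes, with coding GC content at -0.26. These are correlations across genes of the same libraries, and genes are not independent replicates. FASN and ACACA have the longest rows of the 10, 7536 and 6987 bases on average, and ACSL3 and ACSL4 have the lowest coding GC contents, 40.6% and 41.5%. After each library's trends on length and GC content were removed, the median of the 10 was 0.42 against 0.01 for all genes. SCD, ELOVL5 and ELOVL6 hardly moved, at 0.98, 0.59 and 0.61. ACACA went from 0.69 to 0.39, ACLY from 0.35 to 0.23, FASN from 0.51 to 0.46, ACSL4 from 0.74 to 0.52, and ACSL3 from 0.35 to 0.13 with a standard error of 0.06. FADS1 and FADS2 were at 0.33 and 0.31. With both trends removed, ACSL3 and ACLY thus lay lowest of the 10 in place of FADS1 and FADS2, and FASN lay above ACACA. Removal of the length trend alone took FASN to 0.28, ACACA to 0.46 and ACLY to 0.18.

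**Figure D2:**
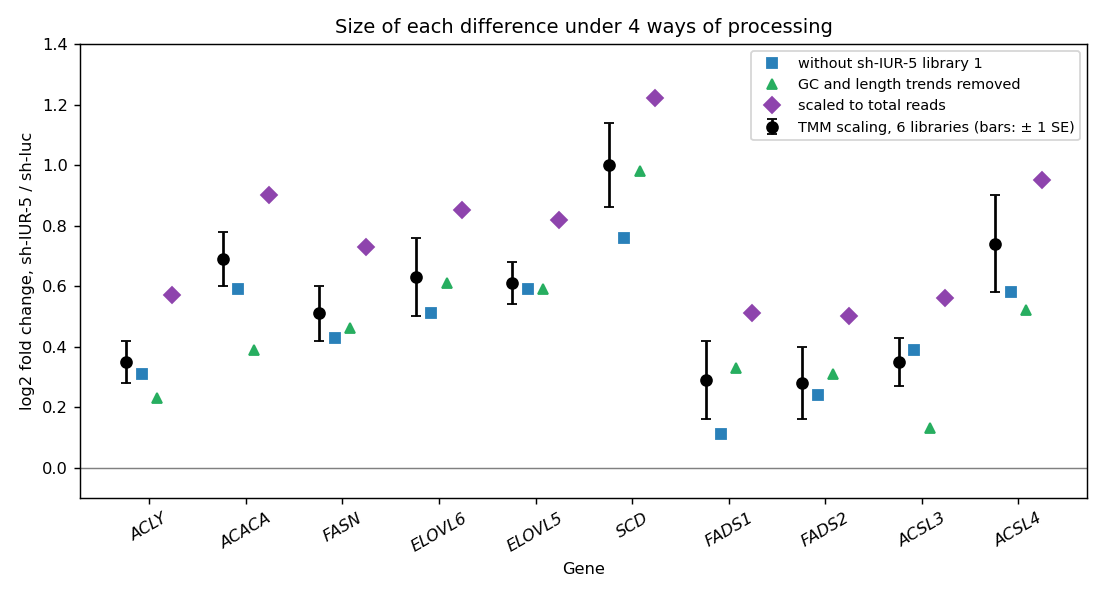
Log2 fold change of sh-IUR-5 over sh-luc for the 10 genes under 4 ways of processing; black points are the edgeR values with TMM scaling and 6 libraries, with bars of 1 standard error. Every value is above 0, SCD runs from 0.76 to 1.22, and ACSL3 falls to 0.13 once the GC and length trends are removed.

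Leaving out library 1 of sh-IUR-5 lowered the median of the 10 genes from 0.56 to 0.47. Beside SCD at 0.76, ELOVL5 at 0.59, FADS1 at 0.11 and FADS2 at 0.24, it left ACLY at 0.31, ACACA at 0.59, FASN at 0.43, ELOVL6 at 0.51, ACSL3 at 0.39 and ACSL4 at 0.58. Within the libraries numbered 1, SCD differed by 1.34 on the log2 scale and FASN by 0.72, and within the libraries numbered 2.1 and 2.2 by 0.78 and 0.40. ELOVL5 differed by 0.62 and 0.60, ELOVL6 by 0.64 and 0.62, ACSL3 by 0.36 and 0.34, and FADS2 by 0.30 and 0.27. These genes were nearly equal in both label series. ACACA (0.81 and 0.62), ACLY (0.45 and 0.30), ACSL4 (0.97 and 0.59) and FADS1 (0.46 and 0.18) were larger in series 1. Each series gave a positive value for all 10. Series 1 holds 1 library per group, so no test was made within it.

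Levels can be compared between genes only per unit of length, here as RPKM (reads per kilobase of coding length and per total reads) summed over the rows of a gene and scaled to total reads. In sh-luc the order of mean RPKM was ELOVL5 (84.5 ± 4.65), ACLY (33.4 ± 0.183), SCD (27.1 ± 0.421), ACSL3 (22.3 ± 1.19), FADS1 (20.9 ± 2.08), FASN (17.7 ± 1.39), ELOVL6 (11.3 ± 1.57), ACACA (6.23 ± 0.261), FADS2 (6.02 ± 0.838) and ACSL4 (1.75 ± 0.108; SD, n = 3 libraries for each). The library ranges of ACSL3 and FADS1, of FADS1 and FASN, and of ACACA and FADS2 overlapped, and those of the other neighbours in the order did not. In sh-IUR-5, SCD (62.8 ± 18.3) stood above ACLY (49.5 ± 4.55) and below ELOVL5 (126 ± 7.97), but its range overlapped that of ACLY. The rest kept the same order, with overlap between ACSL3 (32.8 ± 1.28) and FADS1 (29.6 ± 7.11) and between FADS1 and FASN (29.4 ± 4.13). ACACA (11.7 ± 1.77) and FADS2 (8.5 ± 0.761) no longer overlapped.

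Read singly, the rows show how evenly a difference was carried by a gene's isoforms. Rows of 1 gene share most of their bases and their reads were split between them by a rule that is not given in the sources used here, so they are not independent. Of the 38 rows, 29 reached a mean RPKM of 1. All 4 rows of ACSL4 and 5 of the 10 rows of ACACA stayed under it. Of the 29, 25 passed the row-level threshold, all higher, where 19.2% of all 38204 rows tested did, and as before nothing is read from that count. The 5 tested ACACA rows ran from 0.60 to 0.88 on the log2 scale, the 5 ACLY rows from 0.30 to 0.48, the 4 ELOVL6 rows from 0.55 to 0.79, the FASN rows from 0.51 to 0.56, and the ACSL3 rows from 0.33 to 0.40. The FADS1 rows were at 0.25 and 0.35 and the 3 FADS2 rows ran from 0.13 to 0.43.

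**Figure D3:**
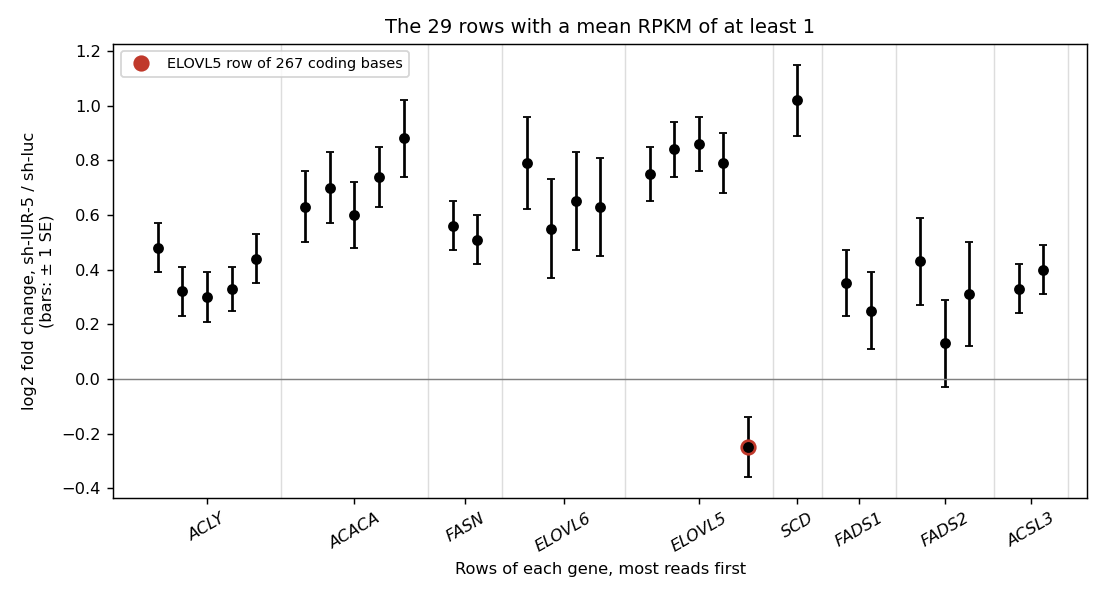
Log2 fold change of sh-IUR-5 over sh-luc with 1 standard error for the 29 rows with a mean RPKM of at least 1, grouped by gene with the most heavily read row first. The rows of a gene lie close together except in ELOVL5, whose row of 267 coding bases (red) is at -0.25 while its other 4 rows are between 0.75 and 0.86.

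ELOVL5 was the exception. Its 4 rows of 789 to 981 coding bases had log2 fold changes of 0.75 to 0.86. The exon printed above was matched by coding length alone to the row of 267 coding bases, accession NP_001229760.1. This row held 298, 221 and 215 reads in sh-luc and 349, 257 and 257 in sh-IUR-5. On the TMM scale that is 13.8, 11.3 and 10.9 RPM against 9.9, 10.1 and 9.8. The sh-IUR-5 libraries thus lay below the sh-luc libraries, by a small margin, and the log2 fold change was -0.25 (SE 0.11). Scaled to total reads, the RPKM of this row was 41.7 ± 5.38 in sh-luc and 40 ± 1.36 in sh-IUR-5 (SD, n = 3 each), a difference within the spread of the libraries.

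The short row took 25.8%, 21.4% and 21.3% of the ELOVL5 reads in sh-luc and 12.1%, 13.4% and 11.9% in sh-IUR-5. This share lies within a gene and a library, so it does not depend on scaling. The other 4 rows summed to 39.6, 41.4 and 40.3 normalised RPM in sh-luc and 71.9, 65.2 and 72.3 in sh-IUR-5. Without the short row, an alternative added after the data were examined, the log2 fold change of ELOVL5 was 0.79 (SE 0.07) rather than 0.61. The summed RPKM of the 4 longer rows, 42.8 ± 0.729 in sh-luc and 85.6 ± 7.1 in sh-IUR-5 (SD, n = 3 each), still left ELOVL5 the highest of the 10 genes per length. The short exon, matched to the row by length, lies in an intron of the longer transcripts. Reads from their unspliced RNA and reads from the short transcript therefore cannot be told apart in this table.

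**Figure D4:**
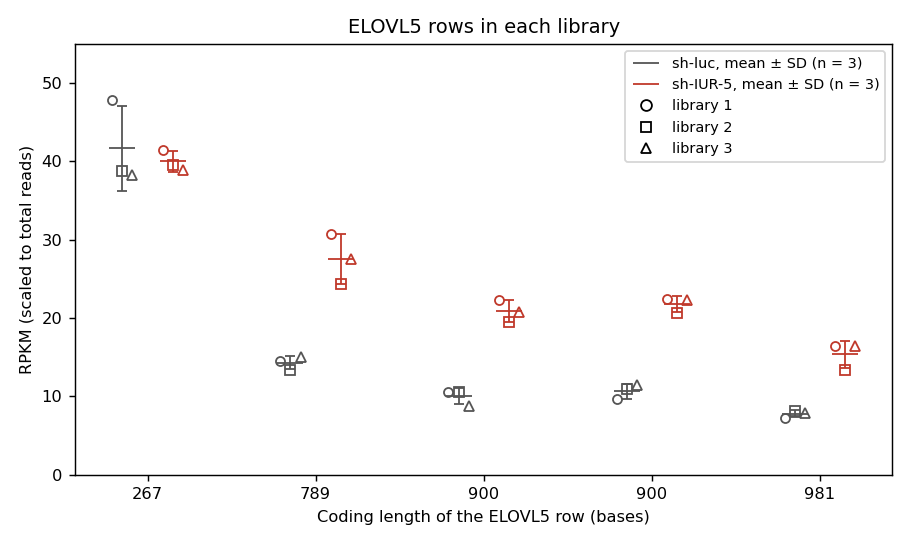
RPKM, scaled to total reads, of the 5 ELOVL5 rows in each library, ordered by coding length; symbols are libraries, horizontal bars with whiskers are means ± SD. The row of 267 bases has similar levels in both groups, near 40, while each longer row is higher in all sh-IUR-5 libraries.

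The genes around these enzymes were read from a list of 109 others of fatty acid metabolism, grouped by role. This list too was drawn up with earlier results of these data known. Its shares, and the adjusted p-values of its genes below, are therefore a description. Of the 109, 88 were tested, 21 (23.9%) rose and 18 (20.5%) fell in sh-IUR-5 with edgeR at an adjusted p under 0.05. Over all genes tested these shares were 24.3% and 22.8%, and the median log2 fold change of the 88 was -0.02 against 0.02 for all. Both shares of the wider list were thus near the background. The counts per role below rest on few genes each and stand beside these same background shares, and nothing is read from them. Of the 21, 14 also passed in the same direction once GC and length trends were removed, and of the 18, 12. The other 21 genes of the list, among them SCD5, ELOVL2, ELOVL4 and ACSL5, had a mean under 1 RPM on the rows that carry their symbol. Since 64.7% of the rows could be given a symbol, a low value here may miss rows of a gene.

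Among the regulators, 4 of 11 rose and none fell, where 24.3% of all genes tested rose and 22.8% fell. SREBF2, the SREBP gene best known for cholesterol synthesis, was at 67.4, 52.4 and 60.5 normalised RPM in sh-luc and 99.6, 74.5 and 72.7 in sh-IUR-5. Its log2 fold change was 0.46 (SE 0.13, edgeR adjusted p = 0.0111), and the groups did not overlap. It was 0.29 without library 1 of sh-IUR-5, still past the threshold, and 0.30 and no longer past it with the length trend alone removed. With GC and length trends both removed, SREBF2 was at 0.41 and passed (edgeR adjusted p = 0.00589). MBTPS1 and MBTPS2, the site-1 and site-2 proteases that release SREBPs from the membrane, rose by 0.50 (edgeR adjusted p = 0.000264) and 0.53 (edgeR adjusted p = 0.0154), the latter at 0.35 and not past the threshold with GC and length trends removed. INSIG1, which holds the SREBP complex in the endoplasmic reticulum and is itself an SREBP target, rose by 0.48 (SE 0.17, edgeR adjusted p = 0.0334). That call was lost without library 1 of sh-IUR-5, at 0.25, and without sh-luc library 2 or 3, at 0.37 and 0.51.

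SREBF1, the SREBP gene best known for fatty acid synthesis, was at 58.2, 50.1 and 60 normalised RPM in sh-luc and 72.7, 57.1 and 53.4 in sh-IUR-5. The groups overlapped and the log2 fold change was 0.12 (SE 0.11, edgeR adjusted p = 0.395), while scaled to total reads it was 0.34 and passed. SCAP, the escort of SREBPs, was at 0.04 (SE 0.07, edgeR adjusted p = 0.684), and 0.25 and past the threshold scaled to total reads. MLXIPL, the carbohydrate-responsive activator of lipogenic genes, was at -0.29 (SE 0.26, edgeR adjusted p = 0.372) with library 1 of each group well above the others of its group. With a term for the label series it was -0.32 and passed.

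The AMP-activated kinase, whose catalytic subunit phosphorylates and inhibits acetyl-CoA carboxylase, had 3 of 5 tested genes higher and none lower. Over all genes tested, 24.3% were higher and 22.8% lower. PRKAB2, a regulatory beta subunit, rose most, from 2.26, 1.38 and 1.67 normalised RPM to 5.36, 3.56 and 4, a log2 fold change of 1.29 (SE 0.23, edgeR adjusted p = 0.000751). PRKAA1, a catalytic subunit, rose by 0.48 (edgeR adjusted p = 0.00198) and PRKAB1, the other beta subunit, by 0.32 (edgeR adjusted p = 0.0144).

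In the supply of carbon and NADPH, 2 of 7 genes rose and 1 fell. IDH1, the cytosolic isocitrate dehydrogenase, rose by 0.47 (edgeR adjusted p = 0.00136), and malic enzyme ME1 by 0.32 (edgeR adjusted p = 0.0124), which was 0.12 (edgeR adjusted p = 0.211) with GC and length trends removed. SLC25A1, the carrier that exports citrate from mitochondria, fell from 428, 405 and 412 normalised RPM to 347, 306 and 294, a log2 fold change of -0.39 (SE 0.08, edgeR adjusted p = 0.00137). The substrate carrier before ACLY and ACLY itself thus differed in opposite directions on the TMM scale, and scaled to total reads SLC25A1 was at -0.18 and no longer passed. Of the 4 tested partners of the carboxylase step, HLCS, which attaches biotin to carboxylases, rose by 0.50 (edgeR adjusted p = 0.00589). ACACB, the mitochondria-associated carboxylase, was at 1.17 to 1.8 normalised RPM in sh-luc and 1.08 to 1.49 in sh-IUR-5, with a log2 fold change of -0.23 (SE 0.24, edgeR adjusted p = 0.47).

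Mitochondrial fatty acid synthesis is a separate pathway that makes the precursor of lipoic acid. Of its 6 genes, 4 fell and none rose, where 22.8% of all genes tested fell and 24.3% rose. NDUFAB1, the mitochondrial acyl carrier protein, fell from 276, 296 and 272 normalised RPM to 190, 228 and 227 (log2 fold change -0.39, SE 0.08, edgeR adjusted p = 0.0022). HSD17B8 and MECR, the ketoacyl and enoyl reductases, were at -0.35 (edgeR adjusted p = 0.00621) and -0.31 (edgeR adjusted p = 0.0215). Of these 4, NDUFAB1 alone passed once GC and length trends were removed, and scaled to total reads the 3 values were -0.18, -0.13 and -0.10, of which the first alone passed.

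The other steps of the microsomal elongation cycle split. HSD17B12, the ketoacyl-CoA reductase, rose by 0.65 (SE 0.09, edgeR adjusted p = 0.000204) and HACD3, a dehydratase, by 0.60 (SE 0.08, edgeR adjusted p = 0.000117), sizes near those of ELOVL5 and ELOVL6. TECR, the enoyl-CoA reductase that ends the cycle, fell from 212, 183 and 201 normalised RPM to 155, 144 and 135 (log2 fold change -0.46, SE 0.08, edgeR adjusted p = 0.000749). All 3 passed in the same direction with GC and length trends removed. Of the 4 tested genes of desaturation and its electron carriers, CYB5B, the mitochondrial outer membrane cytochrome b5, rose by 0.37 (edgeR adjusted p = 0.00173) and the other 3 did not pass.

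Among the 9 tested genes that activate or carry fatty acids, 1 rose and 4 fell, where 24.3% of all genes tested rose and 22.8% fell. ACSBG1, an acyl-CoA synthetase of the bubblegum family, fell from 121, 108 and 112 normalised RPM to 56.9, 62.4 and 62.4 (log2 fold change -0.91, SE 0.07, edgeR adjusted p = 1.43e-05). SLC27A5, a bile acid and very long chain acyl-CoA synthetase, was at -0.88 (SE 0.10, edgeR adjusted p = 4.77e-05) and DBI, the acyl-CoA binding protein, at -0.65 (SE 0.09, edgeR adjusted p = 0.000192). ACSL1, of the same family as ACSL3 and ACSL4, rose by 0.47 (SE 0.15, edgeR adjusted p = 0.0235) and did not pass with GC and length trends removed.

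In esterification, where acyl-CoA is built into glycerolipids, 4 of 15 genes rose and 2 fell. GPAM, the mitochondrial glycerol-3-phosphate acyltransferase that opens the pathway, went from 3.56, 3.47 and 3.75 normalised RPM to 7.97, 7.4 and 8.96 (log2 fold change 1.17, SE 0.13, edgeR adjusted p = 4.76e-05). The phosphatidate phosphatases LPIN2 and LPIN1 rose by 0.85 (edgeR adjusted p = 0.000101) and 0.83 (edgeR adjusted p = 0.00313), and these 3 genes also passed with GC and length trends removed. AGPAT2 at -0.28 (edgeR adjusted p = 0.0387) and DGAT1 at -0.23 (edgeR adjusted p = 0.0452) did not. None of the 4 tested genes of lipid droplets and lipolysis passed at the adjusted threshold with edgeR.

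In oxidation, which breaks fatty acids down, 3 of 18 tested genes rose and 6 fell. CPT1A, which admits acyl chains to mitochondria and is inhibited by the product of ACACA, rose by 0.36 (edgeR adjusted p = 0.0108) and ACADM, the medium-chain acyl-CoA dehydrogenase, by 0.23 (edgeR adjusted p = 0.0155). Neither passed with GC and length trends removed. ECI1, the enoyl-CoA isomerase needed for unsaturated chains, fell from 157, 158 and 166 normalised RPM to 112, 116 and 104 (log2 fold change -0.53, SE 0.07, edgeR adjusted p = 0.000116). ECHS1 and ACADS, which act on short chains, were at -0.46 (edgeR adjusted p = 0.000225) and -0.45 (edgeR adjusted p = 0.0016), and ECI1, ECHS1 and ACADS also passed with the trends removed.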

How the data were processed

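Total RNA of 3 sh-IUR-5 and 3 sh-luc K562 samples was sequenced after standard Illumina library preparation. The authors trimmed adaptors, masked low-quality sequence and mapped reads to hg38. The submitters' processing notes name CASAVA 1.8, Trimmomatic 0.32, Bowtie2 2.1.0 and SAMtools 0.1.19. The authors deposited read counts per RefSeq protein accession without normalization, and RPKM values, which in every row were checked to equal the reads over the coding length and the summed reads of that library. Row lengths are coding lengths (99.78% are multiples of 3). How reads that fit several isoforms were counted is not given in the sources used here. A second deposited table of the authors' own comparison (pooled counts, RPKM, fold change and p-values) was not used.

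Accessions were matched, version ignored, to RefSeq gene symbols (64.7% of rows) and reads were summed per gene. The groups were compared by the two-sided quasi-likelihood test of edgeR 4.0.16 (R 4.3.3), after TMM scaling, over 10706 genes with a mean of at least 1 read per 1000000 (RPM), and over 38204 rows with a mean RPKM of at least 1, with Benjamini-Hochberg adjustment over each table and a threshold of 0.05. Normalised RPM are RPM with total reads multiplied by the TMM factor (0.92 to 1.12). On simulated counts for the same 10706 genes, with 100 genes changed by 0.6 and 100 by 1 on the log2 scale, edgeR recovered 77 and 97 with 15 false calls. Far fewer genes changed there than passed in the data, no library stood apart, and no length or GC trend was built in. The false calls therefore do not give the error rate in these data. Tried as alternatives were DESeq2 1.42.0 and its size factors, total-read scaling, no minimum and a minimum of 5, each library left out, a replicate block, a label series term, the most heavily read row per gene, and removal of each library's trend on coding length, alone or with GC content (mgcv 1.9.3). The corrections of both trends for genes other than the 10 enzymes, and ELOVL5 without its short row, were added after the data were examined.

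The 10 enzymes and the list of 109 related genes were chosen with earlier results of these data known. Named from that list are, per role and direction, up to 3 genes with the largest change past the threshold, plus SREBF1, SREBF2, SCAP, INSIG1, MLXIPL and ACACB. Of the marker lists, the 3 T cell, 2 hepatocyte and 2 fibroblast genes all had means under 1 RPM, and 1 of 2 monocyte genes (LYZ) reached it. Some genes that these rules would name are not reported here.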

Additional observations from a re-analysis of the deposited data

How the results depend on the processing

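All 10 enzymes kept a positive log2 fold change under every alternative. With each library left out in turn, 8 to 9 of them passed the threshold, as did 8 with all 6, and all 10 passed with a label series term or scaled to total reads. Of all 10706 genes tested, 4115 to 5006 passed with a library left out and 5044 with all 6. With the label series term 6402 of all genes passed, and scaled to total reads 5634. As above, nothing is read from the counts of the 10 enzymes. Among the counts over many genes, scaling to total reads moved the related genes from 21 higher and 18 lower to 40 and 8 and all genes from 2604 higher and 2440 lower to 4520 and 1114, and a minimum mean RPKM of 5 lowered the enzymes' rows past the threshold from 25 to 15 and all rows from 14259 to 7357, since fewer rows are tested. All other total counts stayed within 1.5 times of the value reported. Of the single values under an alternative, 151 of the enzymes moved by less than the spread between libraries and 20 by more, while of the named related genes 519 stayed on their side of the threshold, 59 lost it in the same direction, 5 gained it and 4 turned. SREBF1 ran from -0.02 to 0.20 with each library left out, being -0.02 without sh-IUR-5 library 1 and was -0.05 with the length trend removed. SCAP ran from -0.01 to 0.06, being -0.01 without sh-luc library 2, and was -0.14 with the length trend removed. The cause was not tested. Scaled to total reads, SREBF1 at 0.34 and SCAP at 0.25 passed the threshold, while SLC25A1, HSD17B8, MECR, ACADS, AGPAT2 and DGAT1 no longer did. MLXIPL passed at -0.69 without sh-IUR-5 library 1, and at -0.32 with a label series term or a replicate block. Calls lost when 1 library was left out were those of INSIG1 (0.37 without sh-luc 2, 0.51 without sh-luc 3, 0.25 without sh-IUR-5 1), MBTPS2 (0.40 without sh-luc 3, 0.44 without sh-IUR-5 3), ME1 (0.24) and CPT1A (0.30) without sh-IUR-5 3, PRKAB1 (0.26 without sh-luc 2), MECR (-0.29 without sh-luc 3, -0.25 without sh-IUR-5 1), ACSL1 (0.41 without sh-luc 3, 0.39 and 0.48 without sh-IUR-5 1 or 2), ACADM (0.19 to 0.23 without sh-luc 1 or sh-IUR-5 2 or 3), AGPAT2 (-0.32 to -0.15 without sh-luc 3 or any sh-IUR-5 library) and DGAT1 (-0.23 to -0.18 without sh-luc 1 or 3 or sh-IUR-5 2 or 3). Same-numbered libraries did not deviate together in every pair (correlations of 0.44, 0.16 and 0.00), so the numbers were not taken as a pairing. The label series did show a pattern across the groups. Library 1 of sh-luc against libraries 2 and 3 of sh-IUR-5, and the reverse, gave correlations of -0.37 to -0.13. Libraries 2 and 3 of sh-luc against libraries 2 and 3 of sh-IUR-5 gave 0.00 to 0.35. The main errors and calls come from a fit without a label series term, so they do not account for this pattern. With a replicate block, 10 of the enzymes and 6048 of all genes passed, against 8 and 5044 without it, and not every library correlated best with its own number. Counting error limits ACSL4, ELOVL6 and FADS2 most, with under 250 reads in every sh-luc library.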
